A study of Homo sapiens with 16 samples.

Results

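The members described are the 9 genes of the epidermal growth factor (EGF) family whose listed symbols are AREG, EREG, HBEGF, TGFA, BTC and EPGN, which encode 6 ligands, and EGFR, ERBB2 and ERBB3, which encode 3 receptors. They were chosen by symbol out of 26229 listed genes, each symbol had 1 row, and all 9 passed the filter on low counts. RNA-seq was carried out on A431 cells, a line from a human epidermoid carcinoma, and on HaCaT cells, a line of spontaneously immortalised human keratinocytes. Each line gave 1 library with a control siRNA (siCTRL), 3 with siRNA against YAP1 (siYAP), 1 with an empty vector and 3 with YAP5SA, a YAP made active by serine-to-alanine changes, which is 16 libraries in 8 groups. The siRNA cultures carried no expression vector and the vector cultures received no siRNA. siRNA was given 2 times, 24 h apart, and RNA was taken 48 h after the last of these, while the time after vector transfection, the promoter of the construct and whether its cells were selected are not given in the sources used here. YAP is a transcriptional co-activator of the Hippo pathway that binds TEAD factors, and the comparisons ask which transcripts follow its loss or its activity in keratinocytes. Because each control is 1 library, the spread between control cultures could not be measured, and p values rest on the spread among the treated triplicates.

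The ligands are made as membrane-bound precursors, cut free at the cell surface chiefly by the protease ADAM17, and bind receptors on the same or neighbouring cells. Ligand binding pairs the receptors, switches on their tyrosine kinases and feeds the RAS-ERK and PI3K branches. In epidermis, EGFR signalling keeps basal keratinocytes dividing and migrating, and AREG, HBEGF, TGFA, EREG, BTC and EPGN are all EGFR ligands. ERBB2 has no known ligand and acts as a partner of the other receptors, and ERBB3, whose kinase is impaired, is bound by neuregulins. A431 is long used for EGFR work because it carries extra copies of EGFR.

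The table assigned 18115624 to 46791673 read pairs to genes in each library (median 26622174), so that 3 counts, the limit that a count of 0 allows, corresponded to 0.063 to 0.164 CPM (assigned pairs of a gene per 1e+06 of the library). Limits and intervals from counts cover counting error only. YAP1, the targeted gene, was at 94.2 CPM with siCTRL and 5.04 to 6.995 with siYAP in A431, and at 254 and 21.6 to 23.2 in HaCaT. With the empty vector it was at 124 CPM and with YAP5SA at 1494 to 3244 in A431, where the test did not pass (log2 fold change 4.36 ± 0.65 (SE), false discovery rate (FDR) 0.197) unless the replicate number was a block in the YAP5SA triplicates (4.30, FDR 0.000167) or 1 of several other settings was used. In HaCaT it rose from 423 to between 7546 and 22240 CPM (4.97 ± 0.67, FDR 0.00208). All 10 keratinocyte and epithelial markers checked were above 1 CPM in every library of both lines. Summed leukocyte and melanocyte markers stayed at 3.78 CPM or less, with 3 and 2 of the 4 markers at no more than 3 counts in A431 and 2 and 2 in HaCaT. Summed levels of 5 fibroblast markers were 21.5 to 27.9 CPM in the siRNA libraries of HaCaT against 0.605 to 1.79 in its vector libraries, with COL1A2 at or near 0 throughout (at most 0.0256 CPM). Those of 4 endothelial markers, mostly CDH5, were 15.98 to 59.1 against 1.18 to 2.46 CPM. In A431 the fibroblast sums were 10.1 to 14.4 against 2.45 to 5.42 CPM and the endothelial sums 18.3 to 33.8 against 3.88 to 5.92. The keratinocyte and epithelial sums were lower in the siRNA libraries, at 2564 to 3672 against 5489 to 8273 CPM in HaCaT and 3201 to 4239 against 5189 to 5781 in A431. All 3 sums thus moved with the siRNA and vector arms in both lines, as several members did, and their part in the results was not tested.

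Levels of different genes were compared per kilobase (kb) of transcript. In A431, EGFR had the highest median over the 8 libraries, 97.6 CPM per kb (range 76.3 to 138), and TGFA followed at 92.4 (74.2 to 114). These overlapped widely. AREG (34.2, 17.4 to 38.5), EREG (27.1, 13.7 to 46.6), ERBB3 (24.4, 16.5 to 31.1) and ERBB2 (19.6, 16.5 to 22.5) formed a middle group whose neighbours overlapped, above HBEGF (10.7, 6.25 to 14.6). BTC (0.782) and EPGN (0.367) were lowest. In HaCaT the order of the medians was TGFA (86.0), EGFR (42.3), ERBB3 (23.9), ERBB2 (19.2), AREG (10.9), HBEGF (9.26), EPGN (3.001), EREG (0.876) and BTC (0.219), and AREG spread from 0.628 to 101 CPM per kb. Thus the same receptors were well expressed in both lines, whereas EREG stood among the upper 4 members in A431 and next to last in HaCaT. The place of TGFA depends on the transcript used, since a length of 985 bases (longest coding sequence) puts it at rank 2 in A431 and 1 in HaCaT, and 4310 bases (longest transcript) at 5 and 3.

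AREG (amphiregulin) and EREG (epiregulin) differed most between the groups. EPGN, EREG, AREG and BTC lie next to each other, in this order, among the protein-coding genes of chromosome 4. The 250 bases before the start of EREG and of AREG are shown because these neighbours moved together in HaCaT. They come from RefSeq (GRCh38.p14, plus strand), whereas the submitters' processing notes name hg19, and the capitals mark a TEAD motif (GGAATG, searched on both strands, here as CATTCC) in EREG and a cAMP response element (TGACGTCA, its own reverse complement) in AREG.
EREG, chr4:74364895-74365144: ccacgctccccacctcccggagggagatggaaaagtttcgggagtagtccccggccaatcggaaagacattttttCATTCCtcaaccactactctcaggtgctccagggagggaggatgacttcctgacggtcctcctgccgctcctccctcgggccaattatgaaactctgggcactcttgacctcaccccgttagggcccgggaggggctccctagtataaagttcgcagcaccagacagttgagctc
AREG, chr4:74444886-74445135: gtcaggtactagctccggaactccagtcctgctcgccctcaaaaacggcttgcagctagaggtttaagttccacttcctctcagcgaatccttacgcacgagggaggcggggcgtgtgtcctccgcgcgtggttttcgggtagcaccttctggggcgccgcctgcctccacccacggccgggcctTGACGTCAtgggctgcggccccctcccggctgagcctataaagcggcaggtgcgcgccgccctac
The TEAD motif begins 175 bases before the EREG start and 11.9% of 35116 such windows held one. The response element begins 65 bases before the AREG start and was in 1.65% of windows. AREG held no TEAD motif in this window, EREG held no response element, and neither held an AP-1 motif (TGANTCA, both strands, in 6.57% of windows). No other ligand had any of the 3 motifs, whereas ERBB2 held 1 AP-1 motif and the second of the 2 windows of EGFR held 1 TEAD and 2 AP-1 motifs. Windows were found for 8 of the 9 members, ERBB3 having none, and a match is a description of the letters alone.

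In HaCaT, AREG was at 0.601 CPM with siCTRL (11 counts, 95% exact Poisson interval 5.49 to 19.7) and at 2.13, 3.98 and 1.52 CPM in the 3 siYAP libraries. It was at 16.8 with the empty vector and at 39.9, 96.2 and 47.0 with YAP5SA. Every treated library thus lay above its own control in both arms, and the vector libraries lay far above the siRNA libraries. Here and below, the share of all genes without overlap between such groups was not computed, so these statements are descriptions. In A431 it was at 33.8 CPM with siCTRL, 34.2, 28.5 and 31.9 with siYAP, 16.6 with the empty vector and 18.8, 36.8 and 33.5 with YAP5SA. There the siYAP libraries lay on both sides of their control, and the YAP5SA libraries all lay above theirs. In such bulk RNA, fewer cells that express a gene and less of its RNA per cell cannot be told apart.

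EREG was nearly silent in HaCaT siRNA cultures, at 0.328 CPM with siCTRL (about 6 counts, interval 2.20 to 13.1) and at 1.32, 1.41 and 1.35 with siYAP. The empty vector gave 6.68 CPM and YAP5SA gave 11.8, 21.9 and 11.6. In A431 the level was 113 CPM with siCTRL, 215, 178 and 202 with siYAP, 63.1 with the empty vector and 105, 122 and 128 with YAP5SA. In both lines and both arms each treated library of EREG was above the 1 control of its own arm. The A431 siYAP libraries also lay above the empty vector, but the HaCaT siYAP libraries all lay under it. With siCTRL and empty vector taken as 2 controls, the siYAP log2 fold change of EREG in HaCaT was -1.44.

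HBEGF, the heparin-binding ligand that is also the diphtheria toxin receptor, was at 8.63 CPM with siCTRL in HaCaT and at 15.6, 18.8 and 17.3 with siYAP. It was at 25.4 with the empty vector and at 37.6, 96.8 and 45.3 with YAP5SA. The treated libraries did not overlap their controls. In A431 it was at 23.8 with siCTRL, 29.2, 22.6 and 27.8 with siYAP, 14.9 with the empty vector and 23.2, 34.9 and 27.4 with YAP5SA, and only the YAP5SA libraries were all on 1 side of their control.

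TGFA (transforming growth factor α, the classical autocrine ligand of keratinocytes) was at 49.0 CPM with siCTRL and 67.0, 80.3 and 63.8 with siYAP in HaCaT. It was at 89.2 with the empty vector and 150, 213 and 172 with YAP5SA. In A431 it was at 95.8 with siCTRL and, in the opposite direction, at 81.9, 73.1 and 75.3 with siYAP, and at 86.3 with the empty vector against 107, 112 and 107 with YAP5SA. TGFA replicates were tight in A431, and no siYAP or YAP5SA library overlapped its control.

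BTC (betacellulin) and EPGN (epigen) were low. BTC lay between 0.948 and 2.89 CPM in A431, where the siYAP libraries (1.62, 1.52 and 0.948) were under siCTRL (2.15) and the YAP5SA libraries (2.84, 2.41 and 2.89) above the empty vector (2.25). In HaCaT it was at 0.273 CPM with siCTRL (5 counts), 0.0387 to 0.437 with siYAP, and at 1.94 with the empty vector and 0.794 to 1.95 with YAP5SA. The HaCaT siRNA values are a few counts each and no change could be read at this depth. EPGN was at 0.490 CPM with siCTRL and 0.756, 0.689 and 1.25 with siYAP in A431, against 4.81 and 4.10, 1.85 and 3.54 in HaCaT, so that it lay above the control in one line and under it in the other. With the vectors it was at 0.327 to 0.387 CPM in A431 and 2.23 to 3.72 in HaCaT, where YAP5SA libraries lay on both sides of the empty vector.

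EGFR, the receptor that all 6 ligands share, was at 1031 CPM with siCTRL, 1357, 1085 and 1336 with siYAP, 749.6 with the empty vector and 753, 886 and 805 with YAP5SA in A431. In HaCaT it was at 443 with siCTRL, 412, 557 and 510.2 with siYAP, 297 with the empty vector and 419, 380 and 395 with YAP5SA. Every A431 library was above every HaCaT library. EGFR-AS1, which overlaps EGFR on the other strand, was at 0.923 to 4.49 CPM in all libraries, and whether the counting used strand is not given in the sources used here. The estimated counts of EGFR and EPGN were not whole numbers in any of the 16 libraries, nor those of EREG in 13 and of ERBB3 in 7, so part of their reads was shared out among features and their levels carry that uncertainty too.

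ERBB2 was at 74.95 CPM with siCTRL and 74.95 to 88.9 with siYAP in A431, and at 102 with the empty vector and 89.3 to 92.7 with YAP5SA. In HaCaT it was at 142 with siCTRL and 123 to 132 with siYAP, but at 40.6 with the empty vector and 46.6 to 51.5 with YAP5SA. ERBB3 was at 184 and 133 to 146 CPM in the siRNA arm and 151 and 97.6 to 157 in the vector arm of A431, and at 235 and 206 to 227 against 76.9 and 66.1 to 73.0 in HaCaT. For both receptors the siRNA and vector libraries of HaCaT did not overlap, and the treated libraries stayed near their controls.

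**Figure D1:**
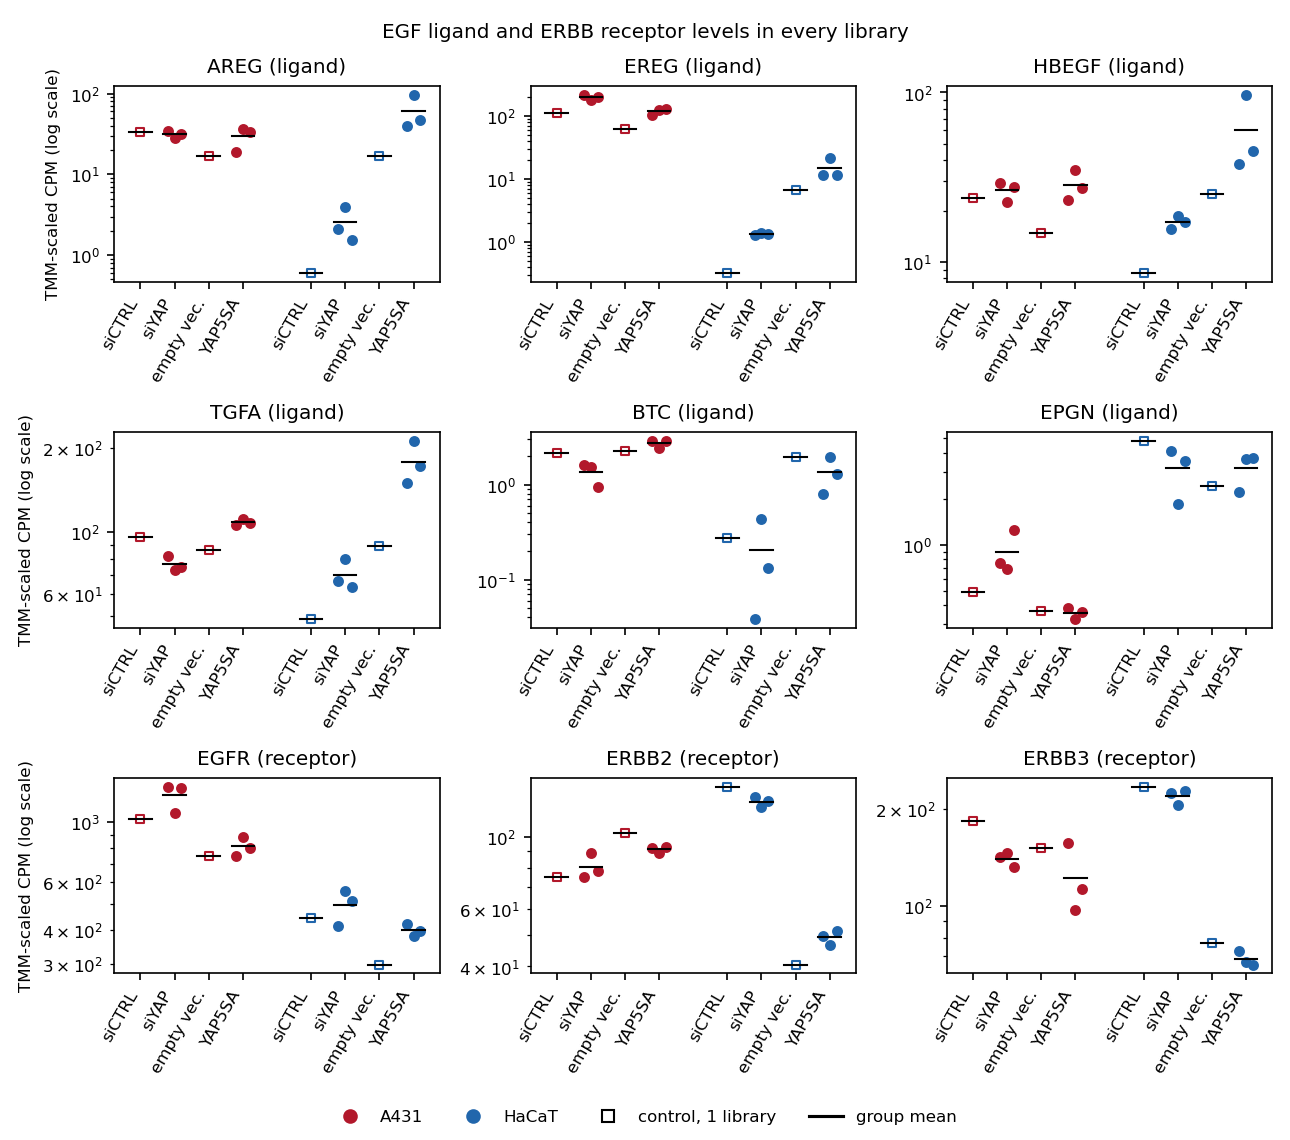
Level of each member in every library, in TMM-scaled CPM on a log scale, by cell line and group. Filled circles are treated libraries, open squares are the single control libraries and lines are group means. AREG and EREG in HaCaT run from under 1 CPM in the siCTRL library to 96.2 and 21.9 CPM with YAP5SA, whereas ERBB2 and ERBB3 in HaCaT are lower in the vector arm.

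YAP5SA was compared with the empty vector to see which members rose with active YAP. In HaCaT, 3 of the 9 members were called higher and none lower, where a call needs an FDR under 0.05 and an average log2 CPM above 1. Of all 14673 tested genes 13.6% were called, 6.99% higher and 6.64% lower. AREG rose by a log2 fold change of 1.86 ± 0.55 (SE), or 3.63-fold (FDR 0.0389). EREG rose by 1.17 ± 0.31 (2.25-fold, FDR 0.0277) and TGFA by 0.998 ± 0.19 (1.997-fold, FDR 0.00804). HBEGF had a difference of similar size that did not pass (1.24 ± 0.43, FDR 0.0685), and it passed with DESeq2 (adjusted p = 0.0163). It also passed with the replicate number as a block in the YAP5SA triplicates (1.12, FDR 0.00747), in which 4 members and 21.5% of all genes were called. That fit, chosen after the data were seen, was made because same-numbered YAP5SA libraries of the 2 lines deviated together. Replicate 1 had the least YAP1 and replicate 2 the most in both lines, so the block cannot be told apart from the order of YAP1. The block also takes spread between replicates out of the error, whereas the single control keeps its own share of that spread. Its p values against a control can therefore be too small, here and below. The calls for AREG and EREG were lost when HaCaT was fitted alone (FDR 0.0855 and 0.108), at unchanged fold changes. The receptors gave 0.42 ± 0.18 for EGFR (FDR 0.137), 0.28 ± 0.13 for ERBB2 (FDR 0.148) and -0.16 ± 0.20 for ERBB3 (FDR 0.607), and none passed. BTC (-0.54 ± 0.63) and EPGN (0.40 ± 0.49) did not pass either. The median log2 fold change of the members was 0.42, against 0.01 over all genes.

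In A431 no member was called with YAP5SA, and neither was any other gene (0% of tested genes), although 828 genes and 2 members, EREG and HBEGF, had an unadjusted p under 0.05. DESeq2 likewise called no member, and the block in the YAP5SA triplicates called 0 members and 0.0136% of all genes. The fitted differences were 0.84 ± 0.52 for AREG, 0.91 ± 0.29 for EREG, 0.93 ± 0.43 for HBEGF and 0.33 ± 0.18 for TGFA, with FDRs of 0.803 to 0.818. Their 95% intervals were -0.28 to 1.96, 0.29 to 1.53, 0.00 to 1.87 and -0.06 to 0.72. Rises as large as those of AREG and EREG in HaCaT lie inside their intervals, whereas the HaCaT rise of TGFA (0.998) lies outside its A431 interval. These intervals hold no spread between control cultures, so such a rise of TGFA is not excluded. The difference between the lines was called for 0 members by edgeR and by DESeq2. By edgeR 2 members, and 3280 of all 14673 tested genes, had an unadjusted p under 0.05. TGFA came nearest among the ligands (A431 minus HaCaT -0.67 ± 0.25, FDR 0.151), and AREG differed by -1.02 ± 0.70 (FDR 0.404). Of all genes 0.0886% were called for this difference, and 5.29% with the block, which called 0 members as well.

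Over both lines YAP5SA raised EREG by 1.04 ± 0.21 (FDR 0.0328) and TGFA by 0.66 ± 0.13 (FDR 0.0294). That is 2 of 9 members, against 2.04% of all genes called, 1.38% higher and 0.661% lower. AREG (1.35 ± 0.38, FDR 0.0756) and HBEGF (1.09 ± 0.30, FDR 0.0761) had larger differences and larger errors, and did not pass. With the block in the YAP5SA triplicates AREG (1.28, FDR 0.0109) and HBEGF (1.02, FDR 0.00467) passed too, which made 4 members, against 9.39% of all genes. Each of these 4 ligands was above the control in 3 of 3 libraries of both lines, a pattern whose share over all genes was not computed. EGFR, which did not pass (0.27 ± 0.13, FDR 0.246), had the same pattern. The EREG and TGFA calls were both lost without A431 YAP5SA replicate 2 (FDR 0.0682 and 0.0620) and without replicate 3 (0.0684 and 0.0649), and 5 members were called without replicate 1, the library with the least YAP1. Of these 5, the 4 ligands were higher and ERBB3 was lower (-0.34). The share of all genes called without that library is not given here, so the count of 5 is a description. With siCTRL and empty vector taken as 2 controls of each line, EREG was lost (1.23, FDR 0.0942) and HBEGF was called (FDR 0.0435).

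siYAP was compared with siCTRL to see which members changed when YAP was depleted. No member was called in A431, where 5.6% of all genes were called (1.81% higher and 3.78% lower) and 3264 had an unadjusted p under 0.05, nor in HaCaT, where 5.67% were called (2.37% higher and 3.3% lower) and 2997 had such a p. Unadjusted p values were under 0.05 for 1 and 4 members, and DESeq2 called 0 and 1. In HaCaT all 4 of these had a positive difference, namely AREG 2.04 ± 0.88 (FDR 0.211), EREG 2.04 ± 0.68 (FDR 0.104), HBEGF 0.997 ± 0.45 (FDR 0.233) and TGFA 0.52 ± 0.19 (FDR 0.126). DESeq2 called EREG there (adjusted p = 0.0294). The AREG and EREG values rest on a control library with 11 and about 6 counts. In A431 the values were -0.10 ± 0.49 for AREG, 0.81 ± 0.28 for EREG (FDR 0.114), 0.16 ± 0.41 for HBEGF and -0.32 ± 0.18 for TGFA (FDR 0.311). EREG in A431 passed when that line was fitted alone (0.78, FDR 0.0290). No fall of an EGFR ligand with siYAP passed the test in either line. In A431 the lower 95% bounds were -2.04 for BTC, -1.15 for AREG, -0.73 for HBEGF and -0.70 for TGFA, and in HaCaT they were -2.70 for BTC and -1.61 for EPGN, so that falls of up to these sizes lie inside the intervals. The intervals hold no spread between control cultures, so other falls are not excluded. With siCTRL and empty vector taken as 2 controls, AREG was at -1.82 (FDR 0.115) and EREG at -1.44 (FDR 0.129) in HaCaT, whereas HBEGF and TGFA stayed positive.

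Over both lines EREG was called higher with siYAP, by 1.42 ± 0.36 (2.68-fold, FDR 0.0220), and no other member was called. Of all genes 13% were called, 5.3% higher and 7.68% lower. The call held without any single treated library (FDR 0.0259 to 0.0408), but with siCTRL and empty vector taken as 2 controls of each line the value was -0.13 (FDR 0.856). For EGFR (0.22 ± 0.13, FDR 0.282), ERBB2 (-0.02 ± 0.09, FDR 0.907) and ERBB3 (-0.25 ± 0.14, FDR 0.266) the 95% intervals were -0.06 to 0.50, -0.21 to 0.17 and -0.54 to 0.05. A change of 1 on the log2 scale lay outside each, but the intervals hold no spread between control cultures, so such a change is not excluded. In HaCaT the log2 ratio of empty vector over siCTRL was -1.81 for ERBB2 and -1.61 for ERBB3. With siCTRL and empty vector taken as 2 controls of each line, EGFR was called higher with siYAP (0.46, FDR 0.0384). The difference of the siYAP effect between the lines was called for 0 members by edgeR and by DESeq2. By edgeR 1 member, and 1690 of all 14673 tested genes, had an unadjusted p under 0.05. TGFA came nearest (A431 minus HaCaT -0.84 ± 0.26, FDR 0.217), and 0.17% of all genes were called for this difference.

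**Figure D2:**
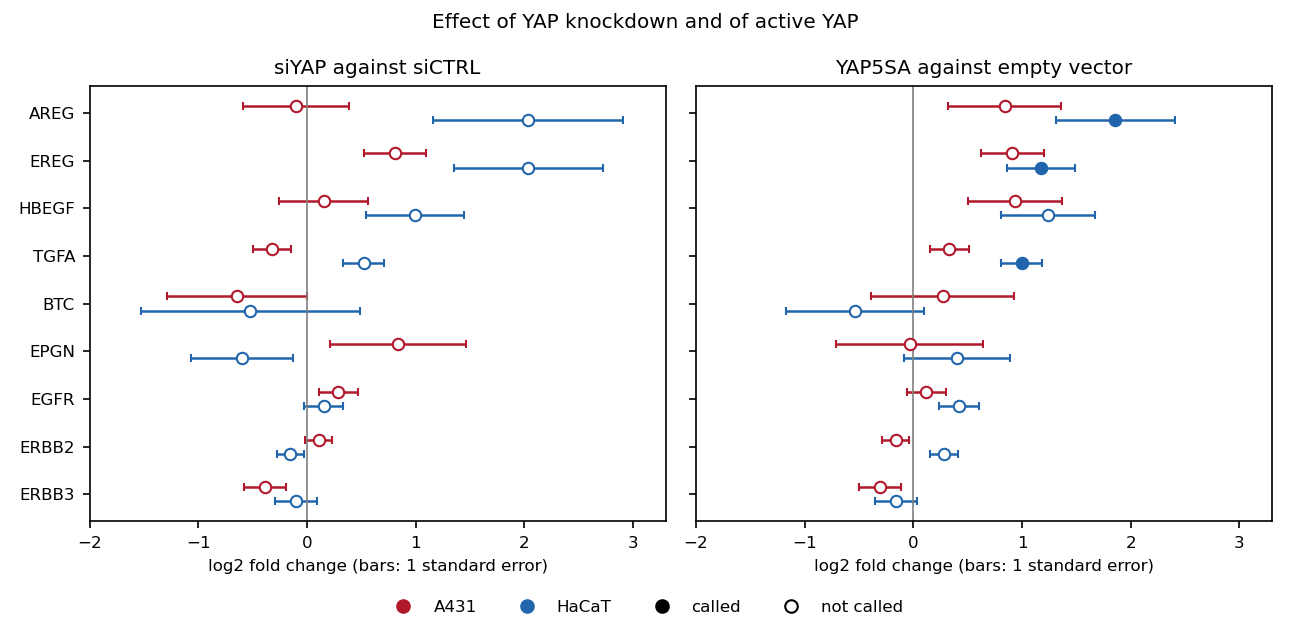
Log2 fold change of each member with siYAP against siCTRL and with YAP5SA against the empty vector, in each line, with bars of 1 standard error. Filled points passed the call rule, which were AREG, EREG and TGFA with YAP5SA in HaCaT; open points did not pass.

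Within the YAP5SA triplicates the libraries differed in their level of YAP1, and AREG, HBEGF and TGFA followed the same order as YAP1 in both lines. In HaCaT replicate 2 had the most YAP1, 22240 CPM, and also the highest AREG, EREG, HBEGF, TGFA and BTC. In A431 replicate 1 had the least YAP1, 1494 CPM, and the lowest AREG, EREG, HBEGF, TGFA and EGFR. These orders are over 3 libraries each and are given as a description, and the share of all genes with such an order was not computed. Replicate 1 of A431 also stood apart over all tested genes. The chi-square of its counts per degree of freedom was 75.7 and 70.9 against replicates 2 and 3, and 6.66 between those 2. Over all genes, the deviations of same-numbered YAP5SA libraries of the 2 lines from their group means were correlated (0.363, 0.158 and 0.135), so the orders in the 2 lines are not independent of each other. In HaCaT the log2 fold change of AREG was 1.37 without replicate 2 and 2.09 without replicate 1, and those of HBEGF were 0.71 and 1.49.

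**Figure D3:**
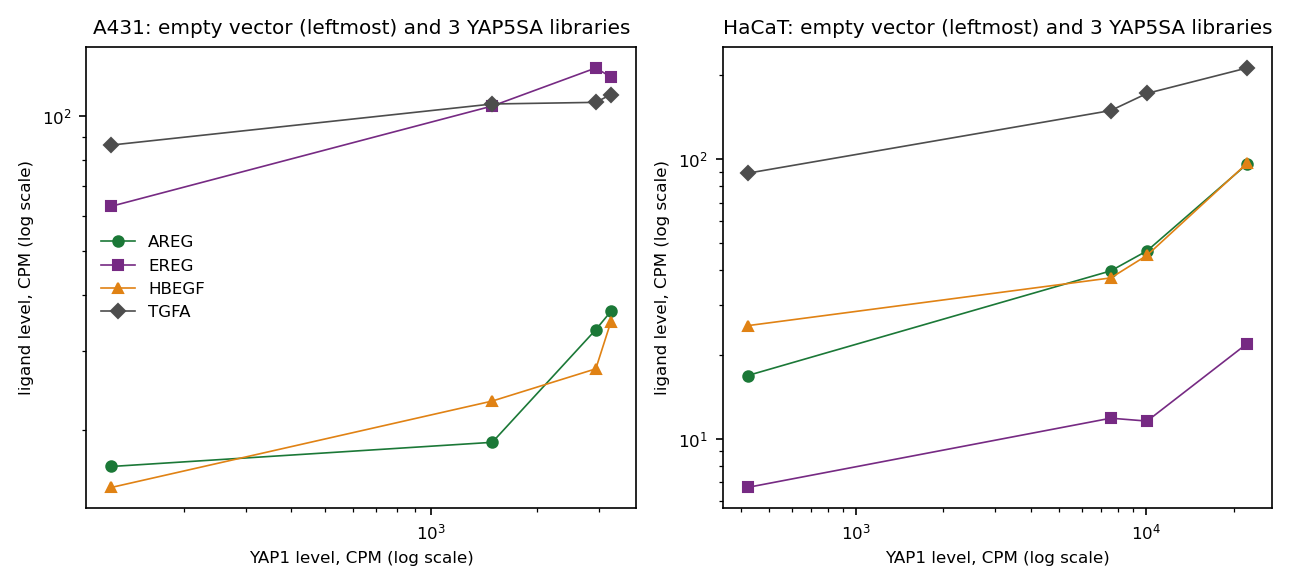
Levels of AREG, EREG, HBEGF and TGFA against the level of YAP1 in the empty vector library (leftmost point) and the 3 YAP5SA libraries of A431 and HaCaT, both axes in CPM on log scales. In HaCaT the library with 22240 CPM of YAP1 has the highest level of all 4 ligands; lines join libraries in order of YAP1.

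The single controls of the siRNA and vector arms also differed from each other, YAP1 included (94.2 CPM with siCTRL against 124 with the empty vector in A431, and 254 against 423 in HaCaT). Between the HaCaT controls, AREG was 28.0-fold and EREG 20.4-fold higher with the empty vector than with siCTRL, BTC 7.11-fold, HBEGF 2.94-fold and TGFA 1.82-fold higher. ERBB2 was 3.51-fold, ERBB3 3.05-fold, EPGN 1.99-fold and EGFR 1.49-fold higher with siCTRL. Between the A431 controls AREG, EREG, HBEGF and TGFA went the other way, being 2.04-fold, 1.79-fold, 1.60-fold and 1.11-fold higher with siCTRL, and ERBB2 was 1.36-fold higher with the empty vector. EGFR (1.38-fold), EPGN (1.33-fold) and ERBB3 (1.22-fold) were higher with siCTRL and BTC (1.04-fold) with the empty vector, as in HaCaT. These are ratios of single libraries without a test. Of all tested genes, 32.1% differed by more than 1 on the log2 scale (ratio computed with 0.5 CPM added) between the HaCaT controls and 5.85% between the A431 controls.

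**Figure D4:**
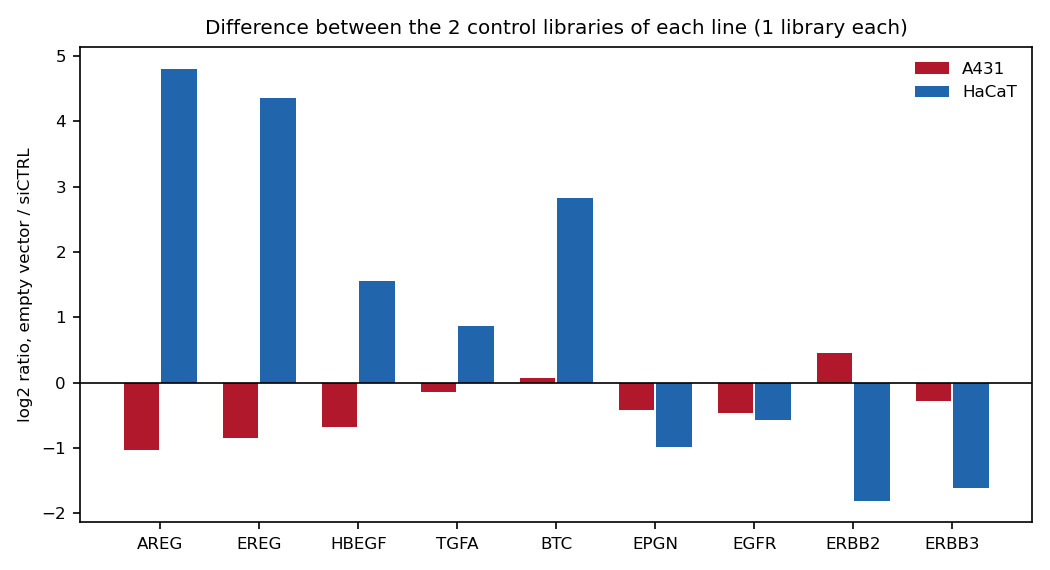
Log2 ratio of the empty vector library over the siCTRL library for each member in A431 and HaCaT, 1 library each and so without an error bar. AREG and EREG reach 4.81 and 4.35 in HaCaT, and ERBB2 and ERBB3 lie at -1.81 and -1.61.

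YAP5SA libraries were also set against siYAP libraries, the only comparison of 2 triplicates within a line. In HaCaT, where 60% of all genes were called (31.5% higher and 28.5% lower), 4 ligands were higher with YAP5SA, namely AREG (log2 fold change 4.62 ± 0.42), EREG (3.47 ± 0.25), HBEGF (1.80 ± 0.29) and TGFA (1.34 ± 0.13), and all 3 receptors were lower, ERBB3 by -1.67 ± 0.14, ERBB2 by -1.38 ± 0.09 and EGFR by -0.31 ± 0.13 (FDRs of 0.0434 for EGFR and at most 0.000113 for the rest). The EGFR call was lost without siYAP replicate 2 or 3, without YAP5SA replicate 2 or 3, and with the replicate number as a block. In A431, where 34.6% were called (20% higher and 14.6% lower), TGFA was higher (0.50 ± 0.13, FDR 0.0077) and EGFR (-0.63 ± 0.13, FDR 0.00204), EREG (-0.74 ± 0.19, FDR 0.00885) and EPGN (-1.28 ± 0.42, FDR 0.0292) were lower. EPGN had 7.8 to 35.77 estimated counts in the A431 libraries, and its call was lost without siYAP replicate 3 (FDR 0.109), without YAP5SA replicate 2 or 3 (FDR 0.0855 and 0.0835) and, by its level, with A431 fitted alone. The state of YAP cannot be told apart from the arm in these comparisons. After subtraction of its control from each arm, no member passed in either line (lowest FDR 0.134), and HaCaT gave 0.48 for TGFA (FDR 0.248), 0.24 for HBEGF, -0.18 for AREG, -0.87 for EREG, 0.43 for ERBB2 and -0.06 for ERBB3. A431 gave 0.65 for TGFA (FDR 0.176), -0.87 for EPGN (FDR 0.631), -0.17 for EGFR and 0.10 for EREG.

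A431 differed from HaCaT in 5 members over the 4 treatments taken with equal weight, against 60.6% of all genes called (33.1% higher and 27.5% lower in A431). EREG was higher in A431 by 5.45 ± 0.20 on the log2 scale (43.8-fold, FDR 9.99e-11), AREG by 2.11 ± 0.30 (FDR 3.1e-05) and EGFR by 1.24 ± 0.09 (2.35-fold, FDR 6.09e-08). EPGN was lower by -2.75 ± 0.29 (FDR 1.77e-06). Its average level was barely above the minimum for a call, and without any 1 of 5 HaCaT treated libraries it fell under that minimum at a like difference. ERBB2 was higher by 0.16 ± 0.06 (FDR 0.0353), a call lost with RLE size factors (FDR 0.0772), DESeq2 (adjusted p = 0.0677) and 4 of the 12 omissions. BTC was higher by 1.76 ± 0.37 (FDR 0.000886) at a level too low for a call. HBEGF (0.06 ± 0.21), TGFA (0.08 ± 0.09) and ERBB3 (0.20 ± 0.10, FDR 0.0825) did not pass. Over the treated libraries alone TGFA passed in the opposite direction (-0.29, FDR 0.00958). For AREG the difference was not of 1 direction across groups, since the 3 HaCaT YAP5SA libraries (39.9 to 96.2 CPM) all lay above the 3 A431 ones (18.8 to 36.8), and HBEGF and TGFA did likewise. ERBB2 and ERBB3 changed direction too. With siYAP their 3 A431 libraries all lay under the 3 HaCaT ones (ERBB2 74.95 to 88.9 against 123 to 132 CPM). With YAP5SA they all lay above (ERBB2 89.3 to 92.7 against 46.6 to 51.5 CPM). The values of ERBB2 and ERBB3 over the 4 treatments thus average differences of opposite direction.

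Genes that moved most like AREG and EGFR were found by the root mean square difference of log2 levels over the 16 libraries, centred within each line. Nearest to AREG were CDH2 (0.46), FN1 (0.52) and SERPINE2 (0.52), against a median of 1.78 over 12236 genes. CDH2, which encodes N-cadherin, was at 1.53 CPM with siCTRL, 2.48 to 4.61 with siYAP, 20.1 with the vector alone and 43.3 to 91.6 with YAP5SA in HaCaT, and had 0 counts in every A431 library. FN1 (fibronectin) went from 1.26 CPM with siCTRL to 164 in YAP5SA replicate 2 of HaCaT, and SERPINE2, a secreted protease inhibitor, from 0.218 to 64.3, also in replicate 2. Thus the likeness lies in HaCaT. Nearest to EGFR were NPC1 (0.11), CCDC122 (0.12) and MTF1 (0.13), against a median of 0.49. NPC1, a cholesterol transporter of late endosomes, was at 131 CPM with siCTRL, 155 to 183 with siYAP, 91.6 with the vector alone and 91.2 to 107 with YAP5SA in A431. Among the members the closest pairs by this measure were ERBB2 with ERBB3 (0.27), HBEGF with TGFA (0.35), EPGN with EGFR (0.44) and AREG with EREG (0.54). Little movement alone also gives small values. The root mean square deviation of EGFR from its own line means was 0.29, less than its difference from EPGN, so that pair shows no shared pattern.

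Of 52 other genes listed for the EGFR pathway, 50 were tested. In HaCaT, YAP5SA raised 7 and lowered 8, and 35 did not pass, where of all genes 13.6% were called (6.99% higher and 6.64% lower). RHBDF2, which escorts ADAM17 to the surface, rose by 1.36 ± 0.30 (FDR 0.0124), from 2.16 to between 4.91 and 6.40 CPM, and the kinase ARAF rose by 0.90 ± 0.16 (FDR 0.00559), from 15.6 to between 26.7 and 30.7. The ERBB4 ligand NRG4 fell by 1.08 on the log2 scale (SE 0.20, FDR 0.00758), from 19.9 to between 8.01 and 10.6 CPM, and PIK3R1, the regulatory subunit of PI3K, fell by 0.97 (SE 0.17, FDR 0.00605), from 59.0 to between 24.8 and 35.1. By role, 2 of 7 genes of ligand shedding and transport rose, 3 of 12 adaptors and first effectors rose and 1 fell, 2 of 11 inhibitors fell, and 1 of 6 genes of the PI3K branch rose and 3 fell. The count of 15 called genes ran from 9 without YAP5SA replicate 3 to 22 without replicate 1, was 6 with HaCaT fitted alone and was 24 with the replicate block in the YAP5SA triplicates. The share of all genes called was 21.5% in the last of these and is not given here for the others. In A431 0 were called with YAP5SA by edgeR and by DESeq2, and 1 was called without A431 YAP5SA replicate 1.

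With siYAP in A431, 1 listed gene rose and 3 fell, where 5.6% of all genes were called. The 4 calls fell to 1 without siYAP replicate 1 or 3 and to 0 with siCTRL and empty vector taken as 2 controls. CBLB, a ubiquitin ligase that marks active EGFR for degradation, rose by 0.81 ± 0.19 (FDR 0.0297), from 11.3 to between 16.8 and 22.5 CPM. LRIG3, of a family of membrane regulators of the receptors, fell by 0.75 (SE 0.14, FDR 0.00947). ADAM17 itself fell by 0.67 in A431 (SE 0.15, FDR 0.0195), from 135 to between 78.1 and 91.5 CPM, and by 0.66 in HaCaT (SE 0.15, FDR 0.0191), from 67.2 to between 39.0 and 46.2. No siYAP library of ADAM17 overlapped its control in either line. In HaCaT NRAS rose by 0.66 ± 0.15 (FDR 0.0231), from 133 to between 201 and 218 CPM, and the other 48 did not pass, where 5.67% of all genes were called. These 2 calls were lost with HaCaT fitted alone and without siYAP replicate 1. ADAM17 was also lower with YAP5SA in HaCaT, from 99.0 to between 66.1 and 81.8 CPM, a difference that did not pass (-0.46 ± 0.15). In A431 YAP5SA gave -0.02 ± 0.15 for ADAM17. ADAM17 in HaCaT thus lay under the 1 control of its own arm both with siYAP and with YAP5SA. The median log2 fold changes of the list were -0.04 in A431 and 0.02 in HaCaT with siYAP, 0.04 and -0.06 with YAP5SA, against 0.03, 0.03, 0.02 and 0.01 over all genes.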

How the data were processed

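RNA was sequenced in 16 libraries of A431 and HaCaT cells, for which the paper names mRNA as the isolated material. Per the labels and the methods, the authors trimmed paired reads to 75 bp, assigned them to RefSeq genes with RSEM, and deposited 1 table of estimated counts per gene, neither scaled nor filtered. The submitters' processing notes name hg19 and RSEM 1.2.11, whereas the methods text names a later release. Conditions were taken from the labels, which give no culture of origin for the replicates.

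The estimated counts were rounded and tested in R 4.3.3 with edgeR 4.0.16 (TMM factors, quasi-likelihood, 8 groups in 1 model, 8 residual degrees of freedom, prior count 0.125, genes with a mean above 10 counts). p values were adjusted over all 14673 tested genes by the Benjamini-Hochberg method. CPM values use TMM-scaled totals, and 95% intervals use the standard error and its t quantile. Exact permutation of 3 against 1 library cannot go below 0.25, and of 3 against 3 not below 0.1. Deviations from group means correlated between same-numbered YAP5SA libraries of the 2 lines (0.363, 0.158 and 0.135). They were also positive in all 3 pairs between the siYAP triplicates of the lines (0.0201, 0.113 and 0.209). The same held between siYAP and YAP5SA in HaCaT (0.037, 0.125 and 0.0557). Differently numbered libraries were not compared, so a pairing of the YAP5SA triplicates was assumed and not shown. A fit with the number as a block in them (coded to sum to 0, the controls at 0) was added after the data were seen. Since the controls stand outside the block, its p values against them can be too small. DESeq2 1.42.0 was an alternative, and the test was checked on simulated data. Lengths came from GENCODE v29, promoters and gene order from RefSeq (GRCh38.p14). Named genes were the members, YAP1, up to 4 called pathway genes with the largest change in each arm of each line, and the 3 genes nearest in pattern to AREG and to EGFR. Members and lists were chosen with earlier results of these data known. One gene that this rule names is not reported here.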

Additional observations from a re-analysis of the deposited data

Results flagged for a closer look

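With siYAP against siCTRL, all 3 TGFA libraries lay under the control in A431 (mean log2 ratio -0.32) and all 3 above it in HaCaT (0.52), and the test of the difference between the lines did not pass (edgeR, FDR 0.217). EPGN went the other way round, with a mean log2 ratio of 0.82 in A431 and -0.68 in HaCaT, at an FDR of 0.515 for the difference. With YAP5SA against the empty vector, ERBB2 lay under the control in every A431 library (-0.16) and above it in every HaCaT library (0.28), at an FDR of 0.169 for the difference. Each of these rests on 1 control library per line. No other member lay on opposite sides of the control in the lines in all 3 libraries of both. The share of all genes that did so was not computed, so these cases are descriptions.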

How the results depend on the processing

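Over all alternatives other than leaving out a library, 737 values kept their direction and their side of the threshold, 18 lost a call, 21 gained one, 40 changed sign and 22 counts moved by over 1.5 times. With 1 library left out these numbers were 569, 20, 11, 13 and 11. The cause of each change was not tested. Depth limited BTC, EPGN and the HaCaT siRNA values of AREG and EREG. With the replicate number as a block in the YAP5SA triplicates, a fit added after the data were seen, 4 members were called for YAP5SA over both lines and 24 pathway genes for YAP5SA in HaCaT, YAP1 passed in A431 (4.30), HBEGF passed in HaCaT, AREG and HBEGF passed over both lines, and no other call of a member changed. In the treated libraries, with the replicate number as a block, 4 members were called between YAP5SA and siYAP in A431 and 6 in HaCaT, where EGFR was lost (FDR 0.0597), and 5 were called between the lines, where ERBB2 was lost, HBEGF turned to -0.18 and TGFA to -0.28 (-0.22 and -0.29 without the block). TGFA thereby passed in the opposite direction (FDR 0.00843, and 0.00958 without the block). No block over all numbers could be fitted with the single controls, and p values from the block in the YAP5SA triplicates can be too small. The alternative of adding AREGB to AREG was not run, as this table lists no such symbol.

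Counts of called members moved as follows. Here and below in this section, the share of all genes called in each setting is not given. With DESeq2, 1 member was called for siYAP in HaCaT and 4 for YAP5SA over both lines, and 7 and 5 pathway genes were called for siYAP in A431 and HaCaT, against 4 and 2 by edgeR. Without a filter on low counts, 4 members were called for YAP5SA over both lines and 9 pathway genes for YAP5SA in HaCaT. When every library had to have more than 10 counts, which left EREG, BTC and EPGN out, 0 members were called for siYAP and 1 for YAP5SA over both lines, 2 between the lines and 2 between YAP5SA and siYAP in A431. With each line fitted alone, 1 member was called for siYAP in A431 and 1 for YAP5SA in HaCaT, and 0 and 6 pathway genes for siYAP and YAP5SA in HaCaT. Between YAP5SA and siYAP, 0 members were called in either line after each arm was set against its own control. YAP1 with YAP5SA in A431 passed with DESeq2 (4.35), without a filter (4.39) and with pooled controls (4.55). With the longest transcript, 10 of 18 ranks of level per kilobase were the same.

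With siCTRL and empty vector pooled as 2 controls, 0 pathway genes were called for siYAP in A431 and 8 in HaCaT, and 5 members for YAP5SA in HaCaT, of which ERBB3 was lower (-1.18). The following log2 fold changes then changed sign. With siYAP in A431, AREG was at 0.32 and ERBB2 at -0.13. With siYAP in HaCaT, AREG was at -1.82, EREG at -1.44, ERBB2 at 0.49 and ERBB3 at 0.49. With YAP5SA, EGFR was at -0.13 and ERBB2 at 0.0455 in A431, and BTC at 0.22, EPGN at -0.17 and ERBB2 at -0.89 in HaCaT. Over both lines, siYAP gave AREG -0.75, EREG -0.13, TGFA -0.11, ERBB2 0.18 and ERBB3 0.12, and YAP5SA gave BTC 0.26, EPGN -0.21, EGFR -0.0122 and ERBB2 -0.42. The difference between the lines was 2.15 for AREG, 2.61 for EREG, 0.44 for HBEGF, 1.88 for BTC and -0.62 for ERBB2 with siYAP, and 0.93 for ERBB2 and 0.73 for ERBB3 with YAP5SA. With each arm against its own control, YAP5SA against siYAP changed sign for AREG (0.94), EREG (0.10), ERBB2 (-0.27) and ERBB3 (0.0873) in A431 and for AREG (-0.18), EREG (-0.87), BTC (-0.0167), EGFR (0.26) and ERBB2 (0.43) in HaCaT.

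With 1 treated library left out, the called members numbered 0 to 5 for YAP5SA over both lines, 3 to 6 between the lines, 3 to 5 and 6 to 7 for YAP5SA against siYAP in A431 and HaCaT and 3 to 4 for YAP5SA in HaCaT. The low count between the lines came without HaCaT siYAP replicate 3. Called pathway genes numbered 1 to 3 for siYAP in A431 (1 without replicate 1 or 3), 0 to 3 in HaCaT (0 without replicate 1), 0 to 1 for YAP5SA in A431 and 9 to 22 in HaCaT. YAP1 with YAP5SA in A431 gave 4.16 to 4.64 and passed without replicate 1. Values that crossed 0 were EPGN with siYAP over both lines (-0.0172 to 0.25), BTC with YAP5SA over both lines (-0.32 to 0.00094), EPGN with YAP5SA in A431 (-0.0855 to 0.0219), the line difference of BTC with siYAP (-0.62 to 0.94) and of EREG (-0.42 to 0.11) and HBEGF (-0.55 to 0.23) with YAP5SA, and AREG (-0.27 to 0.16) and HBEGF (-0.0675 to 0.23) in A431 and EPGN (-0.26 to 0.24) in HaCaT for YAP5SA against siYAP.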

Other observations

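The neuregulins and ERBB4, which belong to the same family of ligands and receptors, were looked at after their values had been seen. NRG1, a ligand of ERBB3, was at 38.1 to 55.4 CPM in all A431 libraries. In HaCaT it was at 11.5 CPM with siCTRL, 8.36, 13.7 and 9.68 with siYAP, 51.6 with the empty vector and 109, 79.3 and 81.7 with YAP5SA. NRG1 in HaCaT thus lay lower in the siRNA arm and higher in the vector arm, as AREG and EREG did and opposite to its receptor ERBB3, and its difference with YAP5SA did not pass (0.80 ± 0.26, edgeR, FDR 0.0543). NRG2 was low in the vector arm of HaCaT, at 0 to 0.282 CPM, against 2.95 with siCTRL and 6.54 to 8.13 with siYAP. It was also above its control in each siYAP library of A431 (1.08 against 2.86, 3.34 and 3.64 CPM), and over both lines the siYAP difference was 1.45 ± 0.56 (FDR 0.105). ERBB4, the remaining receptor of the family, had 0 to 17 counts in A431 libraries and 1.42 to 3.60 CPM in HaCaT libraries.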
